A study of Mus musculus with 12 samples.

Results

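The Myc, Max and Mxd network was followed over 10 genes, Myc, Mycn, Mycl, Max, Mxd1, Mxd3, Mxd4, Mnt, Mlx and Mga, of the 49585 genes counted. The genes were matched in the files by symbol and Ensembl identifier, and no expression threshold entered the match, but the members and the lists of genes below were chosen with earlier results of these data known. The libraries came from naïve CD4 T cells of mouse lymph nodes that had been stimulated in culture for 20 h on plates coated with anti-CD3 (5 ug/ml) and anti-CD28 (1 ug/ml). All mice were female and carried Rnmt fl/fl, floxed alleles of the mRNA cap guanine methyltransferase with loxP sites around exon 3. Control mice were Rnmt fl/fl CD4cre - and Rnmt cKO mice were Rnmt fl/fl CD4cre +, with 3 mice per genotype. The Cre is driven by Cd4 regulatory sequence, which is active from the double positive stage in the thymus, so CD8 T cells of these mice lack the gene as well. Libraries were made of total cytoplasmic RNA and of ribosome protected fragments (RPF), the RNA pieces that ribosomes shield from nuclease. There were 3 per genotype and kind, giving 12 libraries. Same-numbered libraries of a genotype are taken below as 1 culture, which the labels do not state. The cells received cycloheximide, which halts elongating ribosomes, at 0.1 mg/ml for 1 min before lysis. Reads on genes numbered 15079703 to 22629563 per library of total RNA and 4123271 to 10661356 per library of RPF, the shallowest being RPF of Rnmt cKO 3.

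Myc is a transcription factor that binds the DNA hexamer CACGTG, the E-box, only as a dimer with Max, and in T cells it is induced by antigen receptor signalling and drives growth and metabolism. Mxd1, Mxd3, Mxd4 and Mnt compete for Max, and their dimers recruit Sin3 corepressors to the same DNA element, so that Myc and Mxd proteins oppose each other at shared target genes. Mlx forms a parallel arm with the glucose-sensing factors MondoA and ChREBP and can also pair with Mxd1, Mxd4 and Mnt, while Mga is a large Max partner within a Polycomb repressive complex.

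E-box hexamers stood in the start regions of several members, and the 60-base stretches that hold them are shown because the network acts through this element. The windows ran from 250 bases before to 50 bases after the RefSeq start of each gene (build GRCm38.p6), and 9 of the 10 members had one, all but Myc. CACGTG, which reads the same on both strands, was present in 4 of these 9 windows (44.4%). It was present in 8.09% of the windows of all 27025 genes and in 12.7% of the 8132 windows found for genes tested for translational efficiency. The stretches read 5′ to 3′ on the strand of the gene, and capitals mark the hexamer.
Max (chr12:76962246-76962305, minus strand, hexamer beginning 3 bases before the start and reaching past it): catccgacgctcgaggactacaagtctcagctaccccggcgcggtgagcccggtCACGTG
Mxd4 (chr5:34187897-34187956, minus strand, beginning 219 bases before the start): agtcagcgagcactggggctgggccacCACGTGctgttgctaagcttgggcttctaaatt
Mnt (chr11:74830774-74830833, plus strand, beginning 123 bases before the start): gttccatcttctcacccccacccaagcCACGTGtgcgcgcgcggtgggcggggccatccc
Mlx (chr11:101087223-101087282, plus strand, beginning 40 bases before the start): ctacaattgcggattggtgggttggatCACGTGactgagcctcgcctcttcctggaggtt
The windows of Mycn, Mycl, Mxd1, Mxd3 and Mga held no such hexamer, which says nothing of binding elsewhere.

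The genotype labels were checked on Rnmt itself. In total RNA the control cells had 94.4 ± 0.751 CPM of Rnmt (gene counts scaled to a common library size, normalised by TMM, mean ± SD of n = 3) and Rnmt cKO cells 30.6 ± 1.56 CPM. In RPF it had 96.7 ± 8.25 and 10.1 ± 0.495 CPM, so every library matched its label. Transcripts of CD4 T cells were high in all libraries, with Cd4 at 270.4 to 349 CPM and the 6 CD4 T cell markers together at 2142 to 3033 CPM of total RNA. Of these 6 markers, 3 fell in Rnmt cKO cells (Cd3g, Cd3d and Cd5, log2 fold changes of -1.23, -0.74 and -0.65) and none rose, beside 28.0% of all genes that fell and 26.3% that rose. All 4 activation markers tested rose, with Il2ra, Cd69 and Tnfrsf9 at 0.81, 0.85 and 0.74 and Cd44 at 2.19, or 1.54 without Rnmt cKO 2, which had 207 CPM of Cd44 against 83.7 and 66.6 CPM in Rnmt cKO 1 and 3.

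The cells had been purified before culture with a kit for naïve CD4 T cells, a step meant to remove other cell types. B cell transcripts nonetheless differed between the cultures. The summed level of Ms4a1, Cd79a and Cd79b in total RNA was 5.19, 3.75 and 17.7 CPM in controls 1 to 3 and 46.5, 57.5 and 12.03 CPM in Rnmt cKO 1 to 3. Ms4a1 was the most abundant and none of the 3 genes was at 0 in any library. Ms4a1 and Cd79b rose past the threshold in total RNA (log2 fold changes 2.18 and 1.92, adjusted p = 0.044 and 0.012), whereas Cd79a had too few reads to be tested. The sum and Ms4a1 were lower in Rnmt cKO 3 than in control 3, so that the genotypes overlapped. For Cd79b and Cd79a these libraries were nearly level, at 4.01 against 3.98 CPM and 0.431 against 0.430 CPM, and the genotypes did not overlap in total RNA. The summed CD8 T cell markers Cd8a and Cd8b1 had 21.3 to 41.6 CPM in controls and 9.83 to 26.4 CPM in Rnmt cKO cells, and neither passed the test. Myeloid transcripts (Lyz2, Itgam, Csf1r, Cd68) together reached at most 2.37 CPM in total RNA, of which Cd68 was the most abundant, and Csf1r was at 0 in 5 of the 6 libraries. NK cell transcripts (Ncr1, Klrb1c, Klre1) together had 0.211 to 0.265 CPM in controls and 1.08 to 1.83 CPM in Rnmt cKO cells and were below the filter of the test. The part of these other cells in the results below was not tested, and counts without Rnmt cKO 1 and 2 are given with the results. Genes called in total RNA, RPF and TE went from 6244, 3408 and 1042 to 4502, 997 and 390 under that omission, which leaves 1 Rnmt cKO culture. Of all genes, 19.7% were then higher and 20.8% lower in total RNA, 4.36% and 4.75% in RPF, and 80 (0.774%) and 310 of 10337 genes in TE.

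Of the 10 members, 8 were expressed highly enough to be tested. In total RNA of Rnmt cKO cells 3 of the 8 rose (Myc, Mxd1 and Mnt), beside 26.3% of all 11519 genes tested, and 2 fell (Mxd4 and Max), beside 28.0% of them. The median log2 fold change of the 8 was -0.051 and that of all genes -0.0037. In RPF 2 rose (Myc and Mxd1), beside 14.1% of 11428 genes, and 1 fell (Mxd4), beside 15.7%, with medians of -0.019 for the members and 0.0080 for all genes. Translational efficiency (TE) is the change of RPF relative to that of total RNA. In TE none was higher, beside 3.22% of 10668 genes, and none lower, beside 6.55%, by edgeR's quasi-likelihood test. In this fit, which had no block for the culture, none had an unadjusted p under 0.05. With such a block the TE of Myc changed by -0.47 (SE 0.16, adjusted p = 0.080) and no member was called. By DESeq2 none was called in TE either. Leaving out Rnmt cKO 1 and 2 lowered the count in total RNA from 5 to 3 (Myc, Mxd1 and Mxd4) and that in RPF from 3 to 2 (Myc and Mxd1).

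**Figure D1:**
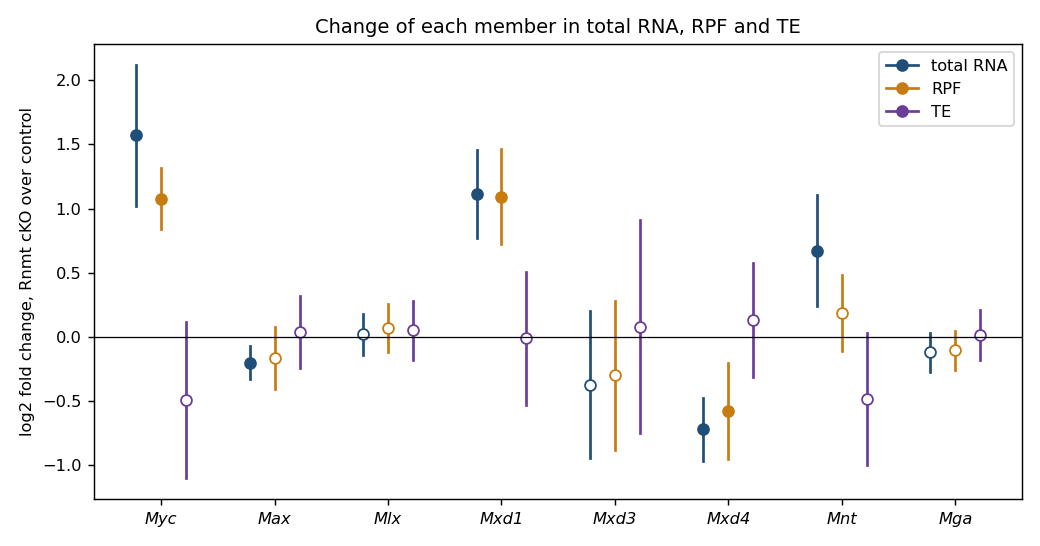
Log2 fold change of each tested member (Rnmt cKO over control) in total RNA (blue), RPF (orange) and TE (purple), with 95% confidence intervals of edgeR's fit (3 libraries per genotype and kind). Filled points have an adjusted p under 0.05: Myc and Mxd1 lie above 0 and Mxd4 below 0 in both total RNA and RPF. Every TE interval of this fit, which had no block for the culture, includes 0.

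Myc (ENSMUSG00000022346, chromosome 15 of GRCm38 from 61985391 to 61990374, plus strand) rose most of the members in total RNA. Its level was 46.8, 48.2 and 67.6 CPM in controls 1 to 3 and 170.2, 206 and 108 CPM in Rnmt cKO 1 to 3. No Rnmt cKO library fell in the range of the controls, with Rnmt cKO 3 the lowest of its genotype and control 3 the highest of the controls. The rise was 2.97-fold (log2 fold change 1.57, SE of the fit 0.24, adjusted p = 9.5e-04), above that of 97.3% of all genes tested. In bulk RNA, more Myc RNA per cell and more cells that hold it cannot be told apart. CPM values are also relative to the RNA sequenced: a uniform loss of 66.3% of RNA per cell would offset this rise. One of 53.7% would offset that of Mxd1 and one of 37.2% that of Mnt. The paper reports less mRNA per cell in activated Rnmt cKO cells than in controls, by a share below each of these. Its value is for dT-purified mRNA, whereas cytoplasmic RNA was sequenced here. The offsets are of point estimates, and the 95% interval of the Mnt log2 fold change ran from 0.24 to 1.11. Its lower end would be offset by a smaller loss. Levels per cell were not tested here.

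Myc footprints rose as well. RPF on Myc were 536, 510.3 and 619 CPM in controls and 1178, 1295 and 1042 CPM in Rnmt cKO cells. The genotypes were again apart. On the log2 scale the range within each was narrower than in total RNA (0.28 against 0.53 in controls, 0.31 against 0.93 in Rnmt cKO cells). The increase was 2.11-fold (log2 fold change 1.08, SE 0.10, adjusted p = 2.8e-04), larger than that of 94.3% of genes. The TE of Myc changed by -0.49 on the log2 scale, with a 95% interval from -1.10 to 0.12 and an adjusted p of 0.31. With each mouse left out in turn it ran from -0.65 to -0.37, and with Rnmt cKO 1 and 2 left out it was -0.11 (adjusted p = 0.91). RPF per kb of coding sequence over total RNA per kb of exon was 18.7 ± 2.08 in controls, above 99.0% of 9985 protein-coding genes, and 13.7 ± 3.24 in Rnmt cKO cells, above 98.2% (SD, n = 3). By culture the ratio was 20.6, 19.0 and 16.5 in controls and 12.4, 11.3 and 17.4 in Rnmt cKO cells, so that Rnmt cKO 3 lay within the range of the controls.

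Levels of Myc and of B cell transcripts ran alongside each other over the cultures. Rnmt cKO 1 and 2 had the highest values of both, and control 3 the highest of the controls. Rnmt cKO 3, however, had fewer B cell transcripts than control 3 in total RNA (12.03 against 17.7 CPM) and in RPF (12.03 against 22.9 CPM), and more Myc than control 3 in both. With Rnmt cKO 1 and 2 left out, the log2 fold change of Myc was 1.02 in total RNA (adjusted p = 0.0044) and 0.91 in RPF (adjusted p = 0.010), where the single remaining library was assumed to vary like the controls.

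**Figure D2:**
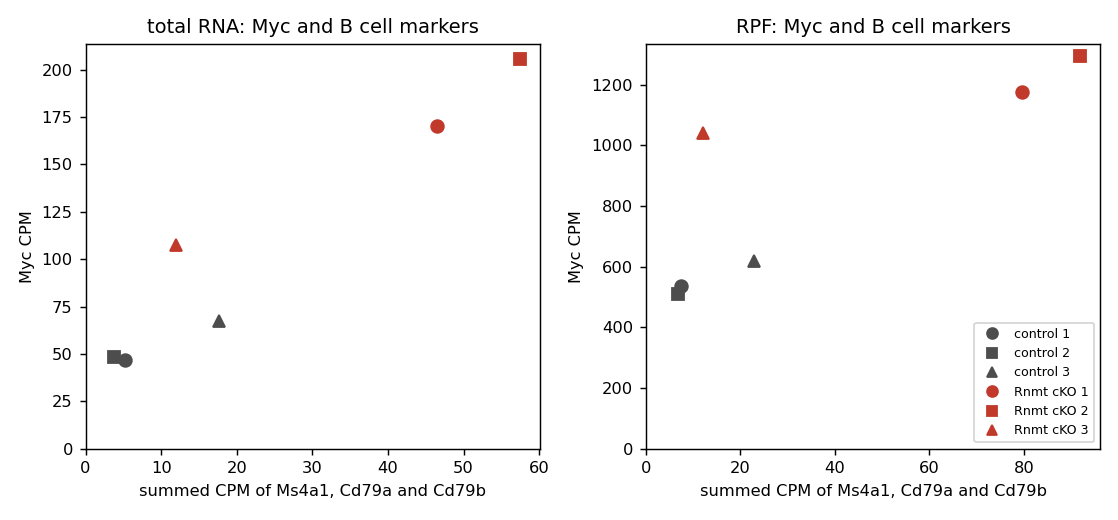
Myc (y axis, CPM) against the summed CPM of 3 B cell genes (x axis) for each culture, in total RNA and in RPF. Rnmt cKO 1 and 2 have the highest values of both, while Rnmt cKO 3 has fewer B cell transcripts than control 3 (12.03 against 17.7 CPM in total RNA) and a Myc level of 108 against 67.6 CPM.

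The paralogues of Myc were almost absent. Mycn, which serves as the Myc gene of neural and early embryonic tissue, had 3 to 18 reads per library of total RNA (at most 0.776 CPM) and 1 to 10 reads per library of RPF. Mycl had 0 to 3 reads per library and was at 0 in 3 of 6 libraries of total RNA and in 5 of 6 of RPF, where a count of 0 allows up to 0.728 CPM in the shallowest library. Neither reached the filter of the test in either kind of library.

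Max (ENSMUSG00000059436, chromosome 12), the obligate partner of Myc, Mxd, Mnt and Mga proteins, was nearly level between genotypes. It had 117, 119 and 119 CPM in total RNA of controls and 108, 98.4 and 102 CPM in Rnmt cKO cells. All Rnmt cKO libraries lay below the controls, with a log2 fold change of -0.20 (SE 0.055, adjusted p = 0.016). The call was lost without Rnmt cKO 2 (-0.15, adjusted p = 0.056). In RPF the genotypes overlapped, at 212 to 248 CPM in controls and 175 to 232 CPM in Rnmt cKO cells (log2 fold change -0.16, 95% interval -0.40 to 0.079, adjusted p = 0.28). That value was -0.057 without Rnmt cKO 2 and -0.26 without Rnmt cKO 1. In the GENCODE vM21 annotation the Max locus overlaps Gm47218 on the same strand. Whether its count, made on vM12, lost reads to this overlap was not tested.

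Mxd1 (ENSMUSG00000001156, chromosome 6), a Max partner that accumulates in differentiating cells and represses Myc targets, rose together with Myc. Mxd1 had 28.2, 31.7 and 37.2 CPM in total RNA of controls and 64.8, 84.6 and 60.4 CPM in Rnmt cKO cells. In RPF it had 20.6, 28.9 and 25.3 CPM in controls and 45.1, 63.1 and 50.1 CPM in Rnmt cKO cells. The genotypes did not overlap in either kind, and Rnmt cKO 2 was the highest in both, as for Myc. The log2 fold change was 1.11 in total RNA (SE 0.15, adjusted p = 5.0e-04) and 1.09 in RPF (SE 0.16, adjusted p = 0.0020), with a TE change of -0.011 (95% interval -0.53 to 0.51). Mxd1 overlaps Gm44292 on the same strand in GENCODE vM21. Leaving out Rnmt cKO 1 and 2 gave 0.93 and 1.01.

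Mxd4 (ENSMUSG00000037235, chromosome 5), another Mxd repressor, moved the opposite way. It had 79.7, 70.1 and 61.8 CPM in total RNA of controls and 42.7, 39.1 and 46.5 CPM in Rnmt cKO cells. Its RPF were 34.8, 43.5 and 38.6 CPM in controls and 26.6, 20.5 and 32.2 CPM in Rnmt cKO cells. All Rnmt cKO libraries were below all controls in both kinds. The log2 fold change was -0.72 in total RNA (SE 0.11, adjusted p = 8.4e-04) and -0.58 in RPF (SE 0.16, adjusted p = 0.030). The call in RPF was lost without control 2, control 3, Rnmt cKO 1 or Rnmt cKO 2 (-0.50, -0.59, -0.59 and -0.41), and without both of these Rnmt cKO cultures it was -0.27 (adjusted p = 0.37).

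Mnt (ENSMUSG00000000282, chromosome 11), the most widely expressed Max-binding repressor, differed in total RNA. Mnt had 5.45, 6.45 and 6.51 CPM in controls and 8.74, 12.6 and 7.98 CPM in Rnmt cKO cells, without overlap. The log2 fold change was 0.67 (SE 0.19, adjusted p = 0.017), 0.59 without control 1 (adjusted p = 0.067) and 0.41 without Rnmt cKO 1 and 2 (adjusted p = 0.099), both short of the threshold. In RPF the genotypes overlapped, with 26.5, 28.7 and 29.2 CPM in controls and 28.2, 30.3 and 38.5 CPM in Rnmt cKO cells (log2 fold change 0.19, 95% interval -0.11 to 0.48). This value was 0.063 without Rnmt cKO 3 and 0.45 without Rnmt cKO 1 and 2. The TE of Mnt changed by -0.49 (95% interval -1.002 to 0.028, adjusted p = 0.23). Rnmt cKO 3 stood apart in this ratio, at 12.5 RPF per coding kb over total RNA per exon kb against 8.37 and 6.22 in Rnmt cKO 1 and 2 and 11.5 to 12.6 in controls. Without Rnmt cKO 3 the TE change of Mnt was -0.76 (adjusted p = 0.043), without Rnmt cKO 2 it was -0.23 (adjusted p = 0.58), and without Rnmt cKO 1 and 2 it was 0.047 (adjusted p = 0.96).

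Mxd3, Mlx and Mga gave no call. Mxd3, an Mxd gene tied to proliferating cells, had 6.78 to 11.7 CPM in total RNA of controls and 4.89 to 7.86 CPM in Rnmt cKO cells (log2 fold change -0.37, 95% interval -0.95 to 0.20). Its interval included falls and rises alike, and control 2 stood above the other libraries. In RPF Mxd3 had -0.30 (95% interval -0.88 to 0.28, adjusted p = 0.40). Without control 2 these were -0.10 in total RNA and 0.019 in RPF. Mlx had 45.2 to 48.2 CPM in controls and 44.7 to 50.7 CPM in Rnmt cKO cells (log2 fold change 0.019, 95% interval -0.14 to 0.18), and 0.069 in RPF (95% interval -0.12 to 0.25). Mga had 155 to 170 CPM in controls and 139 to 157 CPM in Rnmt cKO cells (log2 fold change -0.12, 95% interval -0.27 to 0.030). In RPF it had 87.5 to 93.3 CPM in controls and 80.3 to 85.6 CPM in Rnmt cKO cells, without overlap (log2 fold change -0.11, 95% interval -0.26 to 0.042, adjusted p = 0.25). In total RNA, Max, Mga and Mlx had the narrowest intervals of the network.

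**Figure D3:**
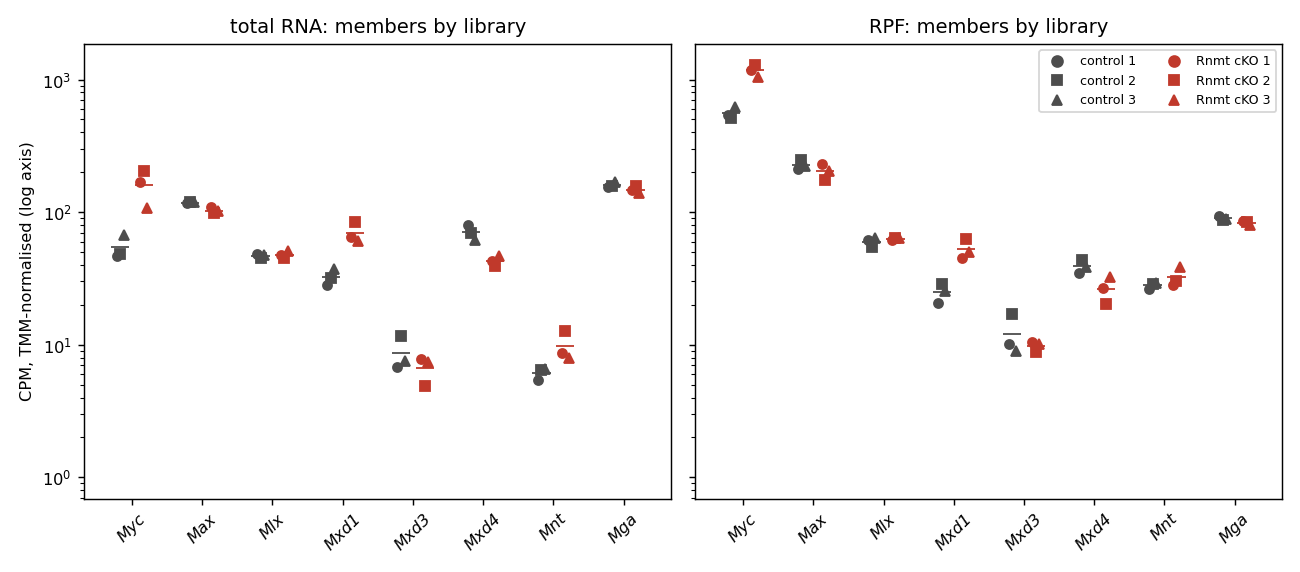
CPM of the 8 tested members in each library (log axis), total RNA on the left and RPF on the right, with grey for control, red for Rnmt cKO, 1 symbol per culture and a line at the mean of 3. Myc and Mxd1 are higher and Mxd4 is lower in every Rnmt cKO library than in every control, in both kinds.

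Per length, Max was the most abundant member in total RNA of controls, at 60.4 ± 0.581 CPM per kb of exon. Mlx (23.7 ± 0.821), Myc (22.1 ± 4.75) and Mxd4 (18.2 ± 2.31) followed, and neighbours among these 3 overlapped. Mga (11.5 ± 0.585) came next, then Mxd1 (6.94 ± 0.978) and Mxd3 (6.53 ± 1.99), which overlapped each other, and Mnt (1.34 ± 0.129). Mycn and Mycl were last at 0.126 and 0.0048 CPM per kb. In Rnmt cKO cells the order changed at the top and in the middle. Myc (65.8 ± 20.3 CPM per kb) now led with Max (52.5 ± 2.61), the ranges of the pair overlapping, and Mxd1 (15.0 ± 2.77) stood above Mxd4 (11.02 ± 0.946) and Mga (10.6 ± 0.659).

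The order in RPF per kb of coding sequence was similar at the top. In controls Max (475 ± 37.8 CPM per kb) and Myc (408 ± 41.9) overlapped, far above Mlx (67.0 ± 5.53), Mxd4 (62.1 ± 6.95), Mxd1 (36.6 ± 6.08), Mxd3 (19.6 ± 7.15), Mnt (15.9 ± 0.813) and Mga (9.82 ± 0.351). In Rnmt cKO cells Myc (860.1 ± 93.1) lay above Max (425 ± 58.7) without overlap. Mxd1 (77.5 ± 13.7) was above Mxd4 (42.1 ± 9.33) in each of the 3 cultures. Mga, which has by far the longest coding sequence of the network (9126 bases), had the lowest RPF level per length of the 8 tested. Mga also had the lowest RPF per coding kb over total RNA per exon kb of the 8. It stood at 0.854 ± 0.064 in controls against a median of 2.51 over 9985 genes, while Mnt stood at 11.9 ± 0.583 and Max at 7.87 ± 0.572.

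Ratios between members describe the balance of activator and repressor messages, not of proteins. Myc over Max per kb was 0.320, 0.325 and 0.455 in total RNA of controls and 1.26, 1.67 and 0.846 in Rnmt cKO cells. The summed level of the Max-binding repressors among the members (Mxd1, Mxd3, Mxd4, Mnt and Mga) overlapped between genotypes. It was 43.2 to 46.3 CPM per kb of exon in controls and 42.2 to 45.9 in Rnmt cKO cells. In RPF it was 127 to 165 and 151 to 172 CPM per kb of coding sequence. Mxi1, an Mxd gene outside the members, is not in this sum and is described below. Within that sum in total RNA, Mxd1 over Mxd4 moved from 0.294 to 0.502 in controls to 1.08 to 1.80 in Rnmt cKO cells, without overlap. Myc over this sum was 0.426 to 0.640 in controls and 1.04 to 1.83 in Rnmt cKO cells for total RNA, and 2.27 to 3.26 and 4.46 to 5.74 for RPF. No library of one genotype fell in the range of the other for Myc over Max, Myc over the sum or Mxd1 over Mxd4, in either kind. For Mxd1 over Mxd4 in both kinds and Myc over Max in total RNA this adds nothing new. There the members themselves did not overlap and moved in opposite directions.

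**Figure D4:**
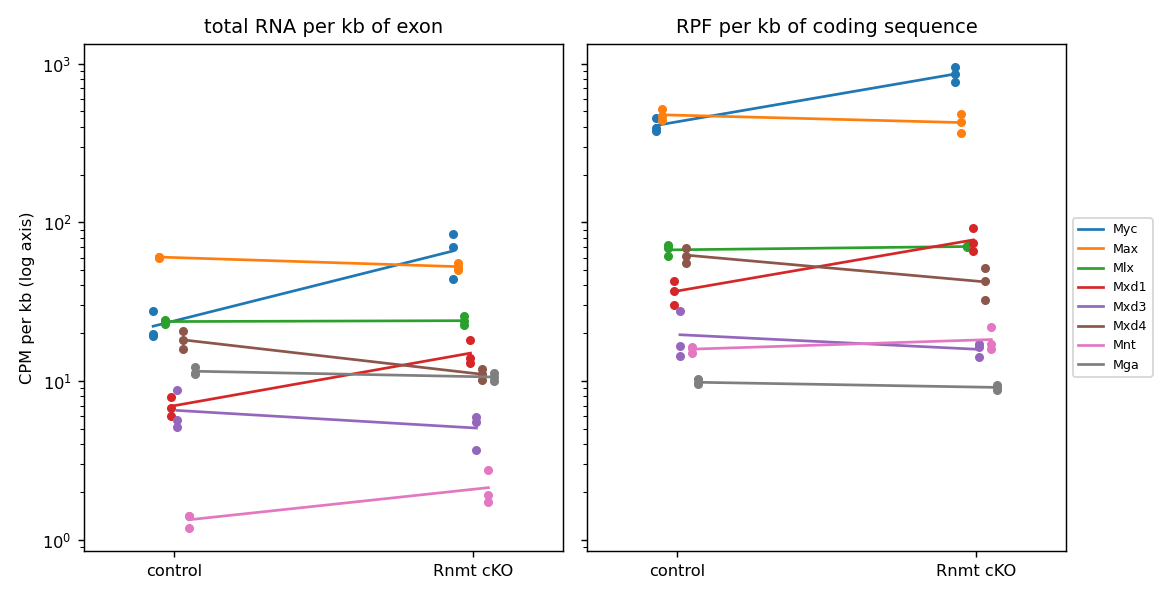
Level of each tested member per kb (log axis) in control and Rnmt cKO cells, total RNA per kb of exon on the left and RPF per kb of coding sequence on the right, with points for cultures and lines joining the means of 3. The Myc line rises past that of Max and the Mxd1 line crosses that of Mxd4 in both panels.

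Of 5 relatives of the network outside the 10 members, 4 were tested, of which 1 rose and 1 fell in total RNA (25% each, beside 26.3% and 28.0% of all genes) and 1 rose in RPF (25%, beside 14.1%). Mxi1, the remaining Mxd gene, had 22.7 to 23.5 CPM in total RNA of controls and 15.4 to 16.9 CPM in Rnmt cKO cells (log2 fold change -0.50, adjusted p = 0.0011). Its RPF overlapped (-0.0059, adjusted p = 0.99), and its TE change of 0.49 did not pass the threshold (adjusted p = 0.13). Zbtb17, which encodes Miz1, a zinc finger factor through which Myc represses genes, rose by 0.36 in total RNA (adjusted p = 0.0040) and 0.29 in RPF (adjusted p = 0.043). Without Rnmt cKO 1 and 2 both calls in total RNA held, and in RPF none of the 3 relatives then tested was called by edgeR, with 0 at an unadjusted p under 0.05, beside 28.2% of all genes. Mlxip, which encodes MondoA, had 0.26 (adjusted p = 0.22), with Rnmt cKO 2 at 59.9 CPM and the other libraries at 34.6 to 41.1 CPM. Mlxipl, which encodes ChREBP, was too low to test. The MondoA and Mlx targets Txnip and Arrdc4, an inhibitor of glucose uptake and its relative, had log2 fold changes of -0.13 and -0.31 (adjusted p = 0.29 and 0.44).

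Most of 59 listed growth genes that Myc is known to drive were higher in total RNA of Rnmt cKO cells, relative to the RNA sequenced. The list holds nucleolar ribosome assembly factors, nucleotide and polyamine enzymes, transporters and glycolytic genes. Ribosomal protein genes, whose mRNAs the paper reports as decreased in activated Rnmt cKO cells, are not on it. In total RNA 38 of the 59 rose (64.4%, beside 26.3% of all genes) and 5 fell (8.47%, beside 28.0%). The median log2 fold change was 0.40, which a uniform loss of 24.4% of RNA per cell would offset. The paper reports a larger loss of mRNA per activated Rnmt cKO cell and states that sequencing then overestimates rises. Whether the list rose per cell was not tested. Wdr43, a factor of the small ribosomal subunit processome, rose from 294 to 309 CPM in controls to 883 to 926 CPM in Rnmt cKO cells (log2 fold change 1.58, adjusted p = 5.8e-06). Srm, the spermidine synthase, rose by 1.12, Nop56, a core protein of box C/D snoRNPs, by 1.07 and Polr1b, a subunit of RNA polymerase I, by 0.97. The 5 genes that fell were Ldha, Hspe1, Slc19a1, Npm1 and Slc2a1 (-0.95, -0.44, -0.41, -0.38 and -0.26), among them the lactate dehydrogenase and the main glucose transporter of activated T cells. These 5 were named after their values were seen.

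Fewer of these genes were called in footprints. In RPF 22 of the 59 rose (37.3%, beside 14.1% of all genes) and 4 fell (Ldha, Npm1, Fbl and Ipo4, 6.78%, beside 15.7%), with a median of 0.16. In TE 1 was higher (Ppan, 0.32, adjusted p = 0.048, named after its value was seen), beside 3.22% of all genes, and 15 were lower (25.4%, beside 6.55%), with a median of -0.20 against 0.035 for all genes. Wdr43 had 273 to 301 CPM in RPF of controls and 294 to 327 CPM in Rnmt cKO cells, so that its log2 fold change was 0.088 in RPF and -1.49 in TE (adjusted p = 1.1e-06). Srm and Polr1b gave 0.21 and 0.023 in RPF, neither past the threshold, and -0.91 and -0.94 in TE. Nop56 rose in RPF as well (0.47, adjusted p = 0.0031) and was lower in TE (-0.60). Without Rnmt cKO 1 and 2 the list had 32 rises (54.2%, beside 19.7% of all genes) and 4 falls (6.78%, beside 20.8%) in total RNA. In RPF it had 4 rises (Bysl, Nop16, Ppan and Ccnd2, 6.78%, beside 4.36%) and 3 falls (Ldha, Npm1 and Ipo4, 5.08%, beside 4.75%). In TE 11 were then lower (18.6%, beside 310 of the 10337 genes), Wdr43, Srm, Polr1b and Nop56 among them, and by edgeR none higher (beside 0.774%), while 25 of the 59 had an unadjusted p under 0.05 in either direction, as had 15.9% of all genes.

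Of 15 coactivators of Myc 8 rose in total RNA (53.3%, beside 26.3% of all genes) and 1 fell (Paf1, a polymerase elongation factor, -0.46, beside 28.0% of all genes). The median was 0.24. In RPF 5 rose (33.3%, beside 14.1%) and none fell by edgeR or DESeq2 (beside 15.7%). In either direction 7 of the 15 had an unadjusted p under 0.05 in RPF, as had at least the 3408 of 11428 genes called. The 5 that rose were Ccnt1, Ruvbl2, Wdr5, Ruvbl1 and Smarcb1, and the median of the list in RPF was 0.044. The P-TEFb kinase Cdk9 and its cyclin Ccnt1, which release paused polymerase, rose by 0.89 and 0.73 in total RNA, the chromatin remodeller Ep400 by 0.53 and the acetyltransferase Kat5 by 0.51. In RPF Ccnt1 rose by 0.36, whereas Cdk9 (0.074), Ep400 (-0.020) and Kat5 (0.044) did not pass the test. In TE Cdk9, Ep400 and Kat5 were lower (-0.82, -0.55 and -0.47) and the ATPase Ruvbl2 was higher (0.34). Without Rnmt cKO 1 and 2, 5 rose in total RNA (Cdk9, Ccnt1, Ep400, Kat5 and Wdr5, 33.3% beside 19.7% of all genes) and 2 fell (Paf1 and Trrap, 13.3% beside 20.8%), and in RPF none was called by edgeR, with 4 of 15 at an unadjusted p under 0.05, beside 28.2% of all genes. In TE 1 was then called, Kat5 (lower).

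Regulators of Myc protein stability were called at shares at or below those of all genes. Of 16 such genes 3 rose (18.8%, beside 26.3%) and 4 fell (25%, beside 28.0%) in total RNA, with a median of 0.015. In RPF 2 rose (12.5%, beside 14.1%) and 2 fell (12.5%, beside 15.7%), with a median of 0.0995. Skp2, an F-box ubiquitin ligase subunit, rose by 0.45 in total RNA and 0.94 in RPF, and the deubiquitinase Usp36 by 0.31 and 0.40. Trim32, a RING ubiquitin ligase, fell by 0.60 in both, and Btrc, the F-box protein beta-TrCP, had -0.44 in total RNA and -0.13 in RPF, of which the first passed the test. The other genes called in total RNA were the kinase Plk1 (0.89), the ubiquitin ligase Stub1 (-0.25) and the phosphatase subunit Ppp2r5a (-0.21). Another deubiquitinase, Usp28, fell in RPF (-0.55) and was lower in TE (-0.78). Without Rnmt cKO 1 and 2 the calls were Skp2 (higher), Trim32 and Btrc (both lower) in total RNA and Usp28 (lower) in RPF.

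**Figure D5:**
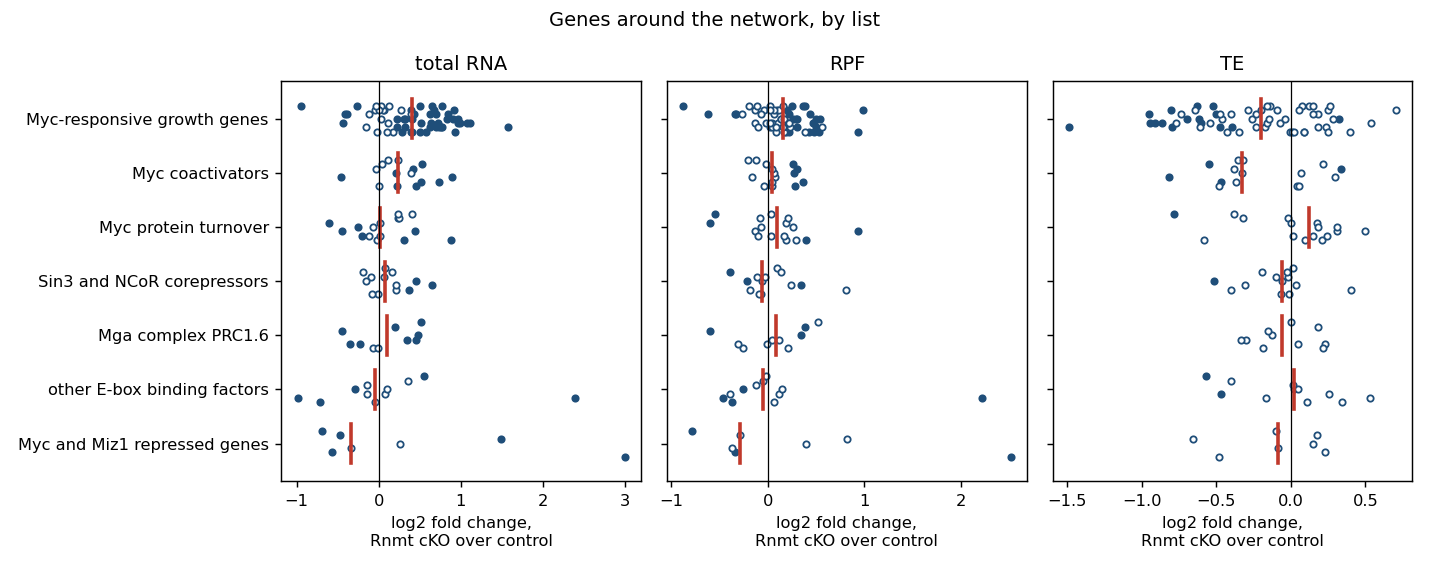
Log2 fold change (Rnmt cKO over control) of each tested gene in 7 lists around the network, by kind of comparison, with filled points for an adjusted p under 0.05 and a red bar at the median of the list. The growth gene medians are 0.40, 0.16 and -0.20 from left to right, and Cdkn1a and Bhlhe40 are the points furthest to the right in total RNA and RPF.

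Mxd proteins act through corepressors. Of 13 genes of the Sin3 and NCoR complexes 3 rose in total RNA (23.1%, beside 26.3% of all genes), with a list median of 0.083. None fell by edgeR or DESeq2 (beside 28.0%). An unadjusted p under 0.05 was found for 4 of the 13, and for at least the 6244 of 11519 genes called. The 3 that rose were the deacetylases Hdac1 (0.65) and Hdac2 (0.46) and the Sin3 subunit Sap18 (0.37). In RPF Hdac1 rose (0.34) and the scaffolds Ncor1 and Sin3a fell (-0.39 and -0.22), with a median of -0.056, so that 7.69% rose and 15.4% fell beside 14.1% and 15.7% of all genes. Without Rnmt cKO 1 and 2, Hdac2, Sap18 and Suds3 rose and Sin3a fell in total RNA, and in RPF none of the 12 then tested was called by edgeR, with 2 at an unadjusted p under 0.05, beside 28.2% of all genes. Of 10 genes of the Mga complex 5 rose (50%, beside 26.3% of all genes) and 3 fell (30%, beside 28.0%) in total RNA (median 0.097). Pcgf6, the Polycomb ring finger protein that marks this complex, rose by 0.48 and Yaf2 by 0.45, whereas Ring1, its E3 ligase subunit, fell by 0.44 and Tfdp2 by 0.35. Rybp (0.52), L3mbtl2 (0.34) and Rnf2 (0.20) rose and E2f6 (-0.23) fell as well. In RPF Pcgf6 (0.35) and Rnf2 (0.38) rose and Ring1 (-0.60) fell (20% and 10%, beside 14.1% and 15.7%), with a median of 0.082. With Rnmt cKO 1 and 2 omitted, Pcgf6, Yaf2, L3mbtl2 and Rnf2 rose and Tfdp2 fell in total RNA, and Rnf2 rose in RPF.

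Among other factors that bind E-boxes, Bhlhe40, a basic helix-loop-helix repressor induced by T cell activation, had 12.1, 14.8 and 17.3 CPM in total RNA of controls and 75.6, 92.6 and 64.2 CPM in Rnmt cKO cells. The genotypes were far apart (log2 fold change 2.39, adjusted p = 2.9e-05, and 2.22 in RPF). Tfap4, itself a known target of Myc, rose by 0.55 in total RNA and had -0.020 in RPF. Tfeb, a lysosomal gene regulator, fell by 0.99 and Arntl, the clock factor BMAL1, by 0.71, and both fell in RPF (-0.46 and -0.37). Of the 11 tested of 14 such genes 2 rose (18.2%) and 3 fell (27.3%) in total RNA (median -0.041), beside 26.3% and 28.0% of all genes, the third that fell being Hif1a (-0.28), the hypoxia factor, which fell in RPF too (-0.26). In TE Tfap4 and the clock gene Clock were lower (-0.57 and -0.47). When Rnmt cKO 1 and 2 were omitted, Bhlhe40 and Tfap4 rose and Tfeb and Arntl fell in total RNA, and the rise of Bhlhe40 was the single call in RPF. In TE none was then called by edgeR, with 1 of 11 at an unadjusted p under 0.05, beside 15.9% of all genes.

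Of genes that Myc represses through Miz1, 7 of 8 were tested. In total RNA 2 rose (28.6%, beside 26.3% of all genes) and 3 fell (42.9%, beside 28.0%), with a median of -0.34. In RPF 1 rose (Cdkn1a, 14.3%, beside 14.1%) and 2 fell (Ndrg2 and Cdkn1b, 28.6%, beside 15.7%), with a median of -0.29. Cdkn1a, the cell cycle inhibitor p21, had 5.24, 7.24 and 9.04 CPM in controls and 65.0, 66.3 and 41.7 CPM in Rnmt cKO cells, equal to 3.003 on the log2 scale (adjusted p = 4.4e-05), and 2.52 in RPF. It is also a well-known target of p53. Cdkn1b, the inhibitor p27, fell by 0.57, and Ndrg2 and Ndrg1 fell by 0.69 and 0.47. Gadd45a, a stress gene, rose by 1.49. Leaving out Rnmt cKO 1 and 2, Cdkn1a and Gadd45a rose and Cdkn1b and Ndrg2 fell in total RNA, and Cdkn1a alone was called in RPF.

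The genes whose pattern over the 12 libraries lay nearest to that of Myc were Nr4a3, Ncoa7, Rel, Gfi1 and Ehd1. Likeness was the root mean square difference of log2 CPM, each taken from the mean of the controls of the same kind, among 6669 genes of at least moderate level, and was 0.21, 0.21, 0.22, 0.24 and 0.25 for these genes against a median of 0.96. Nr4a3, an orphan nuclear receptor induced by the T cell receptor, had log2 fold changes of 1.71 in total RNA and 1.28 in RPF. Rel, the NF-kappaB subunit c-Rel, had 1.501 and 1.16, Ncoa7 1.40 and 1.13, Gfi1, a zinc finger repressor, 1.33 and 1.26, and Ehd1, an endocytic recycling protein, 1.59 and 0.85. Mxd1 was at rank 21 of the 6669, while Mlx, Mga, Max and Mxd4 ranked 3247, 4262, 4897 and 6319.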

How the data were processed

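Per the methods and the labels, the authors used the TruSeq Ribo Profile kit, took read 2 (read 1 had failed), trimmed adapters with cutadapt, removed ribosomal and transfer RNA reads with Bowtie, aligned to mm10 with STAR 2.5.2b and deposited raw counts per gene (GENCODE vM12). They also deposited a table of 10126 genes with normalised signal values per library, used here to check the strand: the reverse-strand counts matched the signal in 100% of values. Its fold changes and p-values come from their own comparisons and were not used.

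The reverse-strand counts were tested here. Genes entered if 3 or more of the 6 libraries per kind had CPM above 1, and were compared by edgeR 4.0.16 (quasi-likelihood F test, TMM, R 4.3.3). For TE, an interaction term between genotype and kind was fitted to all 12 libraries, without a block for the culture. TE counts of all genes and of lists, and the genes flagged below, come from this fit, which ignores pairs of libraries. In each comparison p-values were adjusted by Benjamini-Hochberg over all genes, with a threshold of 0.05. At this depth the median standard errors of log2 fold changes in total RNA, RPF and TE were 0.10, 0.12 and 0.16, and duplicate reads were not separated, so that errors cover counting and the spread between mice. Lengths came from GENCODE vM21, promoter windows from RefSeq. Counts were of whole genes in both kinds, so RPF per coding kb over total RNA per exon kb also depends on these lengths. Python 3.11.15, pandas 2.3.3 and matplotlib 3.10.9 were used.

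Named were Rnmt, the 10 members, up to 4 genes per list with the largest change past the threshold (average log2 CPM of at least 3, no overlap of genotypes), every gene of lists of up to 5, and the 5 genes nearest to Myc (average log2 CPM of at least 4). Other genes that spell out a count of up to 5 were named after their values were seen. Members and lists were chosen with earlier results of these data known. Some genes of the lists are not reported here and were left out of the counts, medians and sums of their lists. Same-numbered total RNA and RPF libraries of a genotype deviated together (r = 0.11 to 0.38 in all 6 pairs). They were therefore taken as pairs from 1 culture, which the labels do not state. Control and Rnmt cKO numbers did not deviate together throughout (r = -0.52 to -0.22 in total RNA, and 0.15, -0.053 and -0.066 in RPF). As alternatives, TMM was dropped, DESeq2 1.42.0 or edgeR's exact test replaced the test, the filter was removed or raised to 10 counts per library, and counts of both strands, replicate blocks and the omission of each mouse were tried. The omission of Rnmt cKO 1 and 2 was chosen after seeing the data.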

Additional observations from a re-analysis of the deposited data

Results flagged for a closer look

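The response to genotype differed between RPF and total RNA for 16 genes named above, by the TE interaction test (adjusted p under 0.05). The test had no block for the culture. No member of the network was among these 16. Over all 10668 genes tested, 3.22% were higher and 6.55% lower in TE. Some of the 16, such as Ppan, were named after their values were seen, so their number is no share of a list. The log2 change of TE was -1.62 for Rnmt, -1.49 for Wdr43, -0.95 for Ipo4, -0.94 for Polr1b, -0.91 for Srm, -0.82 for Cdk9, -0.78 for Usp28, -0.74 for Ehd1, -0.60 for Nop56, -0.57 for Tfap4, -0.55 for Ep400, -0.52 for Hdac2, -0.47 for Kat5 and -0.47 for Clock. It was 0.32 for Ppan and 0.34 for Ruvbl2, which were higher in TE. With 3 libraries per group no single library was tested as an outlier.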

How the results depend on the processing

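Of 336 member results under alternatives 305 kept direction and side of the threshold. The rises of Myc and Mxd1 in total RNA and RPF and the fall of Mxd4 in total RNA did so under every alternative run. A replicate block across genotypes, whose numbers did not pair, ended the fall of Max in total RNA (-0.20, adjusted p = 0.056) and gave 4 members called there. A block for the culture in TE gave -0.47 for Myc (adjusted p = 0.080) and changed no call of a member. With both strands counted, Mlx in total RNA was -0.019, and without the filter on low counts Mga in TE was -0.0088. With each mouse left out in turn, genes called in TE numbered 533 to 1185 and members called in TE 0 to 1. Some values changed sign: Mlx in total RNA (0.019 with all mice) ran from -0.017 to 0.083 and Mxd3 in RPF (-0.30 with all mice) from -0.48 to 0.019, the last without control 2. In TE Max ran from -0.038 to 0.097, Mxd1 from -0.11 to 0.11, Mxd3 from -0.033 to 0.15, Mxd4 from -0.048 to 0.22, Mlx from -0.016 to 0.087 and Mga from -0.043 to 0.064. Leaving out Rnmt cKO 1 and 2, chosen after seeing the data, left 3 members called in total RNA, and 997 genes in RPF and 390 in TE, with fewer libraries. In TE it gave -0.11 for Myc, 0.089 for Mxd1, -0.039 for Mxd3, 0.047 for Mnt and -0.059 for Mlx. The causes were not tested. RPF of Rnmt cKO 3, at 4123271 reads, limits the RPF and TE values of low genes such as Mxd3 and Mnt.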

Other observations

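Pvt1, the long non-coding RNA gene beside Myc, had 21.1 to 22.8 CPM in total RNA of controls and 22.2 to 25.3 CPM in Rnmt cKO cells (log2 fold change 0.078, adjusted p = 0.45), so that the genotypes overlapped. Reads of the RPF libraries on Pvt1 were few, 5 to 17 in controls and 11 to 26 in Rnmt cKO cells, and gave 0.752 to 1.59 CPM and 1.75 to 3.04 CPM without overlap (log2 fold change 1.15, adjusted p = 0.077). Arrdc4 had 53 reads (13.01 CPM) in RPF of Rnmt cKO 3 and 0.656 to 2.44 CPM in the other 5 RPF libraries, while its total RNA in Rnmt cKO 3 was 1.21 CPM.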
